A study of Mus musculus with 8 samples.

Results

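The sterol and fatty acid synthesis genes are 32 genes that build, desaturate, store and move cholesterol and fatty acids, together with the proteins that switch them on. Their open chromatin was followed at every accessible region within 10 kb of a gene body, in the mm10 mouse genome with GENCODE M21 gene models. Regions were formed by merging the peaks of 8 ATAC-seq libraries wherever they shared a base, and a region was kept if at least 2 libraries had a peak in it. This gave 158 regions of 72711 in the whole series. Of these, 47 were promoter regions, with a summit within 1 kb of a transcription start, and 111 were distal. Starts were those of the transcripts in GENCODE's basic set. Of the 47, 35 lay at such a start of the gene itself and 12 at that of a neighbouring gene. Srebf1 and Acaca have no basic start within 1 kb of the outer 5′ end of the gene, and the regions found there are given with these genes.

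Cholesterol is made from acetyl-CoA through mevalonate, isoprenoids and squalene, and palmitate is made from the same precursor by fatty acid synthase and then lengthened and desaturated. Both routes are controlled by the sterol regulatory element-binding proteins SREBP1 and SREBP2, which are held in the endoplasmic reticulum by SCAP and the INSIG proteins while sterols are plentiful. SREBPs are weak activators alone and are known to act with NF-Y and Sp1 at promoters. Retinoid X receptors (RXRs) are the partners of the liver X receptors and PPARs, nuclear receptors that are known to raise Srebf1, Scd1, Fasn and Lpcat3 in many cell types. Alveolar macrophages (AMs) take up and break down surfactant, so they handle a large lipid load.

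ATAC-seq reads open chromatin by letting a transposase insert adapters where DNA is accessible. The 4 KO libraries (replicates 1_2, 1_3, 2 and 3) came from AMs of Cd11cCre+ Rxrab fl/fl mice, in which Cre driven from the CD11c gene deletes Rxra and Rxrb. The 4 WT libraries (replicates 1_2, 1_3, 3 and 4) came from AMs of Cre-negative Rxrab fl/fl mice, so that both groups carried the floxed alleles and only the KO carried Cre. The mice were adult, of C57BL/6J background and of both sexes, with no sex given per library, and 20000 AMs from bronchoalveolar lavage entered each replicate. The sample labels say only AMs. A main figure of the paper calls the cells of both genotypes sorted mature AMs, whereas legends of a supplementary figure call the KO cells immature AMs. The maturity of the KO cells was not tested here. CD11c is also made by other cells than AMs, so the deletion is not limited to them in the animal. It is not stated in the sources used here if 1_2 and 1_3 were taken from the same mouse, so p-values measure the spread between libraries, which may in part be technical.

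The 8 lists held 60363 to 72484 peaks. The level at a region is the number of tags (transposase cuts, extended to 200 bp) at its summit, worked back from the fold and the p-value of each peak. The background ranged from 1.12 to 2.26 tags per 200 bp, and the median over the 47499 regions found in every library ranged from 57 to 91 tags, with WT replicate 1_3 the deepest library. At Rxra, a distal region (chr2:27744546-27744950) held 38, 46, 38 and 42 tags in the WT libraries and had no peak in any KO library. It was picked from several Rxra regions. The Rxra promoter was not called (log2 difference 0.27, limma adjusted p = 0.331), and another region was higher in KO (0.36, limma adjusted p = 0.0443). No Rxrb region is given here. The promoters of 7 of 8 AM marker genes had a peak in all 8 libraries, the exception being Chil3 with 0. None of 4 T cell and 3 B cell markers had a promoter peak in any library. Among the markers of other cells, S100a8, Cxcr2, Ly6c2 and Epcam had one in all 8, whereas Ly6g, S100a9, Sftpc, Sftpb and Krt8 had none. The part of these cells in the results was not tested.

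Chromatin at these genes did not move one way. Of the 108 such regions found in every library, 42 promoters and 66 distal regions, limma on median-centred log2 tags called 9 higher and 7 lower in KO at an adjusted p under 0.05. The lower calls fell at Elovl6, Fdft1, Hmgcs1 and Elovl5, and the higher calls at Scd1, Scd2, Soat1 and Elovl5. Among the promoters 4 were higher and 0 lower, beside 6.85% higher and 2.70% lower of the 13265 promoter regions tested in the genome. No promoter of the genes was lower at an unadjusted p under 0.05 either, beside 656 of the 13265 promoter regions. Among the distal regions 7 were lower and 5 higher, beside 8.70% lower and 5.41% higher of 34234. The median log2 difference was 0.09 over these promoters and 0.09 over all promoters, and 0.06 over these distal regions and 0.01 over all distal regions. The counts of called regions thus lay near the share in the genome, and the calls sat in a few loci. Bulk accessibility cannot tell a region that is open in fewer cells from one that is less open in each cell.

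**Figure D1:**
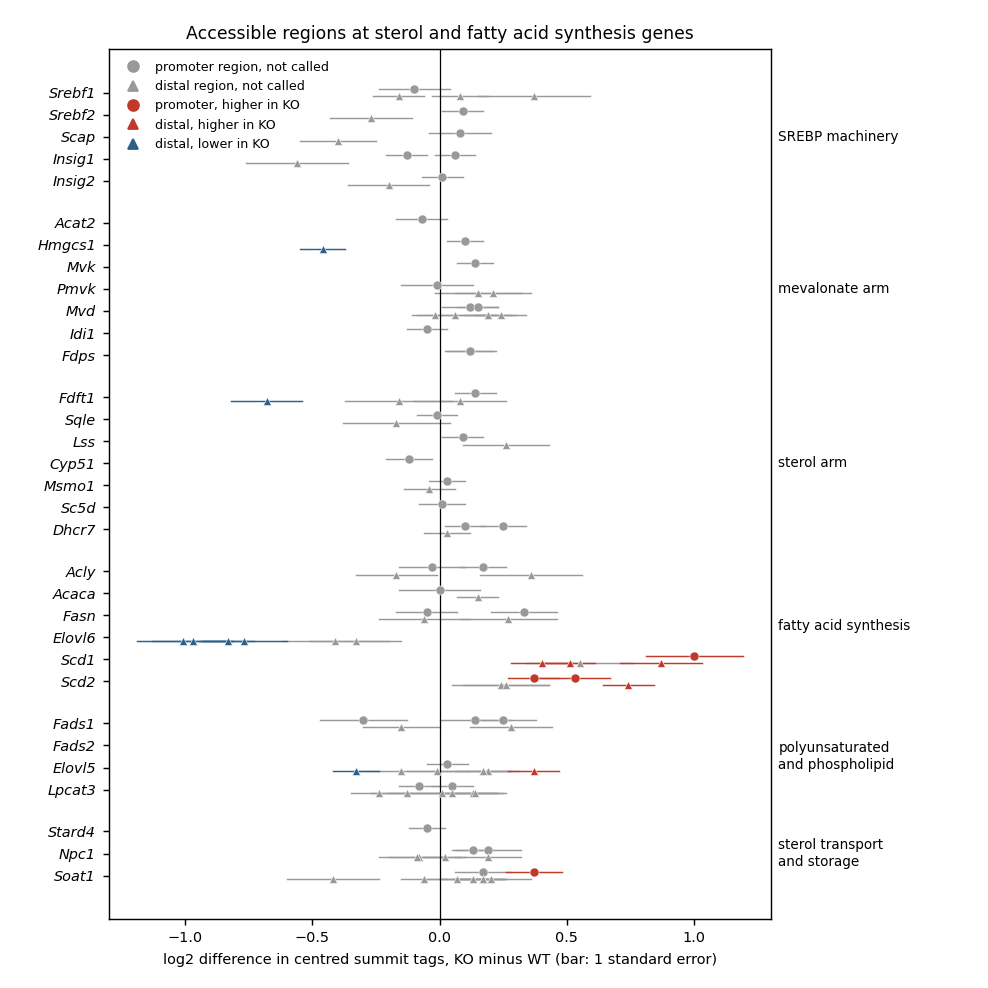
Log2 difference in median-centred summit tags (KO minus WT, with 1 standard error) of the 108 regions found in every library, 1 line per gene and genes grouped by role. Circles are promoter regions and triangles distal regions, coloured where limma called them. The sterol and mevalonate promoters sit near 0, the 6 Elovl6 regions all lie to the left, and the Scd1 and Scd2 regions all lie to the right. Fads2 has no region with a peak in all 8 libraries.

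The number of regions called higher changed with the scaling of the libraries. When the tags were scaled by the genome-wide background of each library, 1 promoter and 2 distal regions of these genes were higher and 0 and 6 lower. Over all promoters in the genome, the calls went from 358 lower and 908 higher with median centring to 203 lower and 68 higher with background scaling, 425 and 620 with total tags, and 403 and 621 with quantile normalisation. Over all distal regions, the same 4 scalings gave 2979 lower and 1851 higher, 1785 and 507, 3452 and 1480, and 3218 and 1742. The 9 calls that also passed with background scaling were those at Elovl6 (4 regions), Fdft1, Hmgcs1, the Scd1 promoter, the outermost of the 3 regions downstream of Scd1 and the region upstream of Scd2.

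The SREBP genes were examined first, since they govern the rest. The promoters of Srebf1, Srebf2, Scap, Insig1 and Insig2 gave 6 tested regions, none of them called, with log2 differences between -0.13 and 0.09. Srebf1 encodes the SREBP1 forms, which favour fatty acid synthesis. At its basic start, which lies 1.98 kb inside the gene, the KO libraries held 64, 58, 58 and 47 tags and the WT libraries 76, 100, 60 and 53. These groups overlapped, and the difference was -0.10 on the log2 scale (SE 0.14, 95% interval -0.38 to 0.18, limma adjusted p = 0.701). A stronger region 0.32 kb from the outer 5′ end of Srebf1 (chr11:60222694-60223301), counted as distal, held 103, 109, 113 and 87 tags in KO and 106, 147, 116 and 89 in WT, with a log2 difference of 0.08 (95% interval -0.14 to 0.29). The Srebf2 promoter held 301, 260, 250 and 245 tags in KO against 292, 313, 277 and 264 in WT, a log2 difference of 0.09 (95% interval -0.07 to 0.26). The stronger of 2 regions at the Insig1 promoter held 312, 403, 341 and 307 tags in KO and 391, 430, 372 and 324 in WT, a log2 difference of 0.06 (95% interval -0.11 to 0.22). At these regions of the 3 genes the genotypes overlapped in tags and the intervals held 0.

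Outside the promoters, 2 regions of this group came close to the threshold, and they are named after their values were seen. A region 7.21 kb upstream of the Insig1 start (chr5:28063930-28064580) held 35, 40, 20 and 16 tags in KO and 40, 59, 38 and 44 in WT, groups that overlapped through KO replicate 1_3. Its log2 difference was -0.56 (SE 0.20, 95% interval -0.95 to -0.16), with a limma adjusted p that rounds to 0.05 but missed the threshold, and it was called in 6 of 17 alternatives (adjusted p from 0.0134 to 0.241). An intronic region of Scap 8.85 kb from the start (chr9:110341991-110342511) held 49, 55, 55 and 74 tags in KO and 78, 125, 108 and 58 in WT, which also overlapped. Its log2 difference was -0.40 (SE 0.15, limma adjusted p = 0.0647), and it was called in 4 of 17 alternatives (adjusted p from 0.00896 to 0.252).

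Faint distal peaks at 2 genes of this group were found mostly in WT. An intronic region of Scap (chr9:110356507-110356917), the sterol sensor that escorts SREBPs, had a peak in all 4 WT libraries with 12, 16, 13 and 15 tags and in none of the KO libraries. A region downstream of Srebf1 (chr11:60192565-60192888) held 14, 17, 11 and 13 tags in WT and 12 in KO replicate 3, with no peak in the other KO libraries. Both stood close to the weakest peaks of the lists, whose smallest summits held 6 to 9 tags. With all lists reduced to the same length, the Scap region kept a peak in 1 WT library and the Srebf1 region in 2 WT libraries and 1 KO library.

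In the mevalonate arm, from acetyl-CoA to farnesyl diphosphate, none of 7 own promoters was called, and their log2 differences lay between -0.07 and 0.15. Hmgcs1, which makes HMG-CoA, had the strongest promoter of all the genes studied, above 99.9% of the promoters tested in the genome. It held 698, 655, 606 and 582 tags in KO and 674, 730, 710 and 630 in WT, overlapping groups with a log2 difference of 0.10 (SE 0.07, 95% interval -0.05 to 0.25, limma adjusted p = 0.397). The Mvd promoter, of the decarboxylase that ends the mevalonate steps, held 380, 391, 389 and 355 tags in KO and 362, 431, 391 and 403 in WT (log2 difference 0.15, 95% interval -0.02 to 0.32). At Idi1, the isomerase of the isoprenoid building block, the values were 271, 276, 265 and 207 against 265, 423, 305 and 248 (log2 difference -0.05, 95% interval -0.21 to 0.12). The Fdps and Mvk promoters gave log2 differences of 0.12 and 0.14, and those of Acat2 and Pmvk -0.07 and -0.01.

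The Hmgcs1 promoter is shown because it was the only promoter region at an own basic start with the sterol regulatory element (SRE) searched for, TCACNCCAC on either strand. The region 0.32 kb from the outer 5′ end of Srebf1, counted as distal, also held a match. The sequence printed is the gene strand of RefSeq's Hmgcs1 promoter (GRCm38.p6, chr13:119690194-119690242, plus strand). The match, in capitals, starts 137 bases before the RefSeq start.
Hmgcs1 promoter: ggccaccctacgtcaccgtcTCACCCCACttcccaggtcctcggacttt

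A second Hmgcs1 region, downstream of the gene, did change. The region at chr13:119713063-119713919, 22.8 kb from the Hmgcs1 start, held 154, 136, 135 and 159 tags in KO and 229, 302, 246 and 174 in WT. The start nearest to it was that of another gene, Gm48342, at 8.7 kb. All KO libraries lay below all WT libraries, with a log2 difference of -0.46 (SE 0.09) and a limma adjusted p of 0.000392. The promoter and the downstream region of this gene therefore differed in their calls, although the difference between them was not tested.

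The sterol arm runs from squalene to cholesterol. None of its 8 own promoters was called, and the log2 differences lay between -0.12 and 0.25. The Msmo1 promoter, of the sterol C4-methyl oxidase, was the strongest, with 623, 538, 549 and 504 tags in KO and 600, 718, 630 and 563 in WT (log2 difference 0.03, 95% interval -0.11 to 0.18). At Sqle, the squalene epoxidase, the values were 287, 275, 285 and 263 in KO and 325, 338, 351 and 282 in WT (log2 difference -0.01, 95% interval -0.17 to 0.16). Cyp51, the sterol 14-demethylase, had 176, 183, 142 and 143 tags in KO and 198, 279, 196 and 153 in WT (log2 difference -0.12, 95% interval -0.30 to 0.06). The promoters of Lss, Fdft1 and Sc5d gave log2 differences of 0.09, 0.14 and 0.01. The 95% intervals of these 6 promoters held 0.

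Dhcr7, the last reductase of one branch of cholesterol synthesis, had the only promoter of the SREBP, mevalonate and sterol genes at an unadjusted p under 0.05. Its weaker start region held 170, 186, 178 and 159 tags in KO and 168, 204, 174 and 135 in WT, overlapping groups with a log2 difference of 0.25 (SE 0.09, 95% interval 0.07 to 0.43, limma adjusted p = 0.0552). The stronger of its start regions gave 0.10 (95% interval -0.06 to 0.26). Over the SREBP, mevalonate and sterol genes together, 21 own promoter regions of 19 genes were tested and 0 were called by limma. Of all 13265 promoters tested in the genome, 358 were called lower and 908 higher, and 3190 were at an unadjusted p under 0.05. Over the 21 regions the fold of KO over WT was between 0.915 and 1.19, and the lowest and highest bounds of the 95% intervals were 0.77 and 1.35. Without WT replicate 4, the Mvd and Fdft1 promoters were called higher, with log2 differences of 0.25 and 0.21, and without KO replicate 1_2 the Dhcr7 region was called higher, with 0.30.

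One region of the sterol arm was lower in KO. An intronic region of Fdft1 (chr14:63150100-63150822), the squalene synthase that commits farnesyl diphosphate to sterols, lay 27.5 kb from the start. It held 47, 59, 46 and 38 tags in KO and 75, 102, 97 and 80 in WT, and the groups did not overlap. The log2 difference was -0.68 (SE 0.14, limma adjusted p = 0.000372), or 0.623 of the WT level. The promoter of the same gene held 370, 378, 357 and 340 tags in KO and 342, 433, 389 and 357 in WT.

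**Figure D2:**
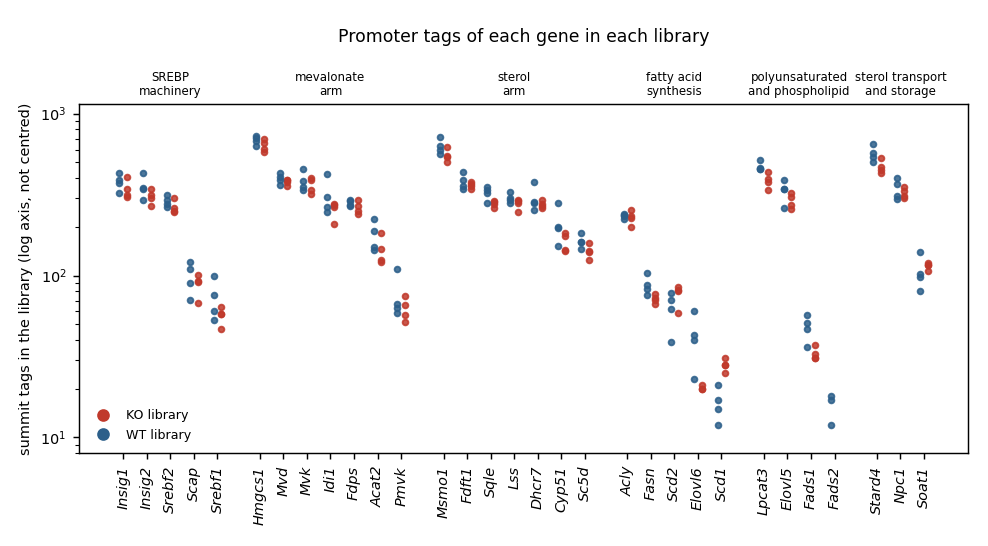
Summit tags at the strongest own promoter region of each gene, on a log axis and not centred, with 1 point per library (KO and WT side by side) and genes grouped by role. The sterol promoters are mostly strong, with overlapping genotypes, the Scd1 promoter is among the weakest with all KO points above all WT points, and the Elovl6 promoter shows the reverse. Fads2 has points from 3 WT libraries only, Acaca has no region at a basic start, and Srebf1 is shown at its basic start inside the gene.

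The fatty acid synthesis genes held most of the calls. Acly cleaves citrate to acetyl-CoA, and its promoter held 254, 226, 232 and 199 tags in KO and 240, 237, 234 and 223 in WT (log2 difference 0.17, 95% interval -0.01 to 0.36). At Fasn, the fatty acid synthase, the values were 73, 71, 77 and 67 in KO and 83, 103, 87 and 76 in WT (log2 difference -0.05, 95% interval -0.30 to 0.19). Neither was called. Acaca, which makes malonyl-CoA, had no region at its basic starts in 2 or more libraries. The region at the outer 5′ end of the gene (chr11:84129160-84129846) is shared with the start of Tada2a and held 40, 49, 54 and 38 tags in KO and 52, 58, 48 and 50 in WT (log2 difference 0.00, 95% interval -0.32 to 0.32). Its strongest region, in an intron 6.38 kb from a start, held 341, 320, 314 and 238 tags in KO and 286, 346, 334 and 297 in WT (log2 difference 0.15, 95% interval -0.02 to 0.32).

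Elovl6 elongates palmitate to stearate, and 4 regions in its introns were lower in KO (chr3:129532355-129638495, plus strand). Of its 11 regions, 6 had a peak in all libraries, all 6 had a log2 difference below 0, and 4 were called. The other 2, at 8.39 kb upstream and 41.4 kb into the gene, gave -0.41 and -0.33 (limma adjusted p = 0.201 and 0.239). The strongest, in an intron 4.02 kb from the start (chr3:129536193-129536599), held 101, 93, 90 and 83 tags in KO and 211, 201, 188 and 161 in WT. The groups were far apart, with a log2 difference of -0.83 (SE 0.10, 95% interval -1.04 to -0.63), 0.562 of the WT level, and a limma adjusted p of 4.14e-08. Over 16 alternatives the log2 difference of this region lay between -0.91 and -0.76, with limma adjusted p between 8.25e-09 and 7.39e-06. The fit without trended prior variance was not among these 16, nor behind the later ranges over the alternatives.

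The other called Elovl6 regions formed a group about 80.6 kb into the gene. The middle one (chr3:129612385-129613165) held 45, 42, 38 and 35 tags in KO and 108, 151, 63 and 67 in WT. Its log2 difference was -0.97 (SE 0.16, limma adjusted p = 1.19e-05). The region before it (chr3:129611639-129612027) held 48, 35, 24 and 25 tags in KO and 60, 91, 50 and 58 in WT, with a log2 difference of -0.77 (SE 0.17, limma adjusted p = 0.0014). In that region the genotypes did not overlap in tags, but overlapped slightly after centring. The last of them (chr3:129613695-129614169) held 35, 25, 25 and 27 tags in KO and 84, 95, 58 and 39 in WT, with a log2 difference of -1.01 (SE 0.18, limma adjusted p = 4.43e-05). These 3 regions are neighbours and not independent observations.

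The other 5 Elovl6 regions lacked a peak in 1 or more libraries. A region 70.0 kb into the gene (chr3:129602150-129602917) had 36, 28, 16 and 20 tags in WT and no peak in any KO library, and it kept this 4 to 0 pattern with lists of equal length and at a −log10 q of at least 5. A further 2 intronic regions had peaks in WT replicates 1_3 and 3 only. The Elovl6 promoter (chr3:129532099-129532594) had no peak in KO replicate 2, held 20, 21 and 20 tags in the other KO libraries, and held 43, 60, 40 and 23 in WT. It entered the limma fit only when a missing peak was allowed, with KO replicate 2 left out at that region. That fit gave a log2 difference of -0.74 (SE 0.20, limma adjusted p = 0.0109). The region 1.62 kb into the gene behaved alike in the same fit, with -0.67 (SE 0.19, adjusted p = 0.0155) and a missing peak in KO replicate 1_2. A library without a peak is one in which the peak caller's threshold was not met, and its level is not known to be 0.

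The summit of the region 4.02 kb into Elovl6 is printed because it is the most firmly lower of the regions and held, within 100 bp of its summit, an SRE match (in capitals as GTGGGGTGA, the complement strand) and 2 matches to CCAAT, the core of the NF-Y motif (also in capitals). It is chr3:129536302-129536502 of GRCm38, plus strand, inside an intron.
Elovl6 intron, 4.02 kb: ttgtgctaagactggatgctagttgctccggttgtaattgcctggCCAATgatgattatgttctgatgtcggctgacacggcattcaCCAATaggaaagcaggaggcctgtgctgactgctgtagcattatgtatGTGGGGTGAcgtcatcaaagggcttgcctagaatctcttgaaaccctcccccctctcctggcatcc

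Scd1 and Scd2 encode stearoyl-CoA desaturases, which turn stearate into oleate, and their regions differed in the other direction. All 10 tested regions of the pair had a log2 difference above 0, and 7 were called higher in KO. The Scd1 promoter (chr19:44407701-44408543) was weak, below all but 3.13% of tested promoters, with 31, 28, 28 and 25 tags in KO and 15, 21, 17 and 12 in WT. The groups did not overlap, and the log2 difference was 1.0 (SE 0.19, 95% interval 0.61 to 1.39), a fold of 2.01, with a limma adjusted p of 0.000211. Over the alternatives it lay between 0.85 and 1.03, with adjusted p from 0.000135 to 0.00349.

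A distal region 8.64 kb upstream of Scd1 (chr19:44416171-44416588) had 35, 34, 31 and 29 tags in the KO libraries and no peak in any WT library. The start nearest to it was that of AC151478.3, at 3.26 kb. This region was the only one of these genes with a peak in all 4 KO and no WT libraries. It kept that pattern with lists of equal length and at the stricter q. A Scd2 intron region (chr19:44297519-44297751) had 22 and 26 tags in KO replicates 1_2 and 1_3 and no peak elsewhere. Downstream of Scd1, 3 neighbouring regions were also called higher. The outermost (chr19:44387207-44387612) held 58, 53, 53 and 45 tags in KO and 31, 44, 39 and 22 in WT, a log2 difference of 0.87 (SE 0.16, limma adjusted p = 0.000148). The strongest (chr19:44388371-44389252) held 180, 178, 159 and 160 in KO and 118, 191, 149 and 105 in WT, a log2 difference of 0.51 (SE 0.10, limma adjusted p = 0.000115). At the strongest region WT replicate 1_3, the deepest library, had the most tags, and the genotypes were apart only after centring. The innermost (chr19:44389543-44389966) gave 0.40 (limma adjusted p = 0.0226, and 0.0219 to 0.354 over the alternatives), a call that was also lost without KO replicate 1_2, KO replicate 1_3 or WT replicate 4.

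At Scd2, another desaturase of the same cluster, a region 9.43 kb upstream (chr19:44283910-44284555) held 190, 180, 156 and 132 tags in KO and 105, 157, 106 and 92 in WT. After centring the groups were apart, with a log2 difference of 0.74 (SE 0.10, 95% interval 0.55 to 0.94), a fold of 1.68, and a limma adjusted p of 2.61e-07. The Scd2 promoter (chr19:44293634-44294174) held 80, 81, 85 and 59 tags in KO and 71, 78, 62 and 39 in WT, overlapping in tags but not after centring. Its log2 difference was 0.53 (SE 0.14, limma adjusted p = 0.00711, and 0.00367 to 0.132 over the alternatives). A region at the start of the noncoding gene AC123853.1, downstream of Scd2 (chr19:44314254-44315180), gave 0.37 (SE 0.10, limma adjusted p = 0.00622).

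**Figure D3:**
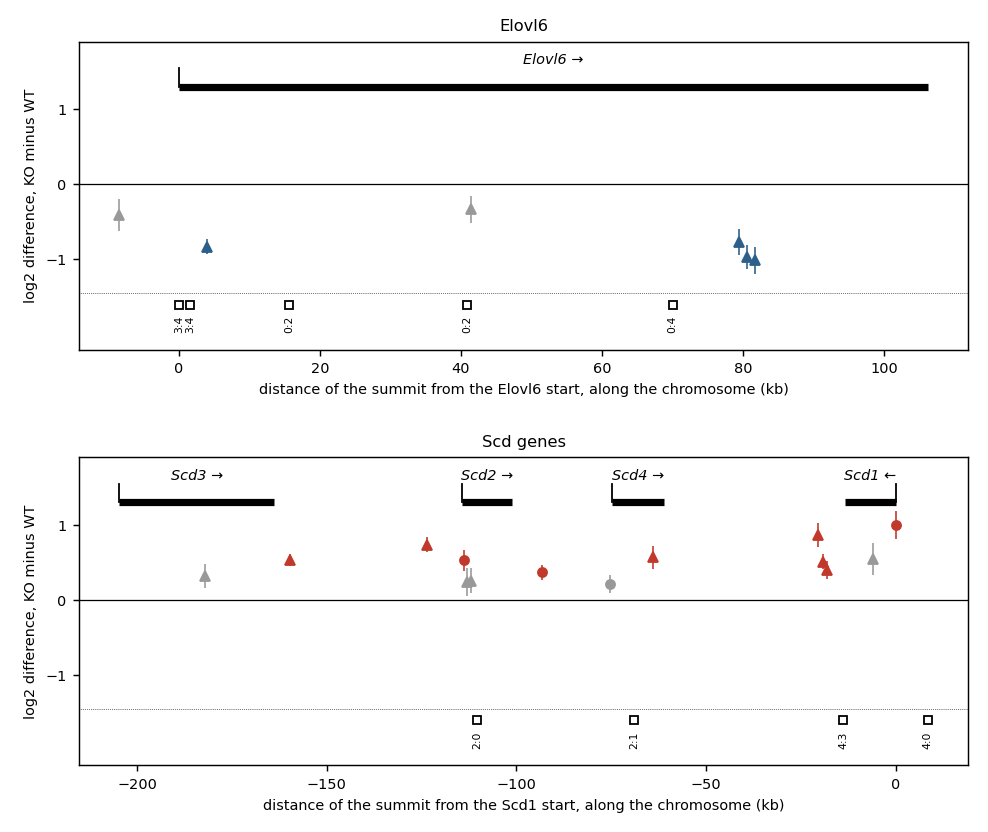
Log2 difference (KO minus WT, with 1 standard error) of each region against the distance of its summit from the Elovl6 start (upper plot) and from the Scd1 start (lower plot), in kb along the chromosome, with gene bodies as bars and arrows for their direction. Circles are promoters, triangles distal regions, blue lower, red higher and grey not called. Squares under the dotted line are regions without a peak in every library, labelled with the number of KO and WT libraries that had one. Every tested region lies below 0 at Elovl6 and above 0 in the Scd cluster.

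The same direction ran through the neighbouring desaturase genes Scd3 and Scd4, which lie with Scd1 and Scd2 in 1 cluster. Taking the 4 genes together, a grouping made after the values had been seen and given no test, 18 regions over 191 kb (from chr19:44225709 to chr19:44416588) included 14 with a peak in all libraries. All 14 had a log2 difference above 0, from 0.22 to 1.0, with 9 called higher and 0 lower. A region near Scd3 (chr19:44248036-44248786) held 274, 248, 258 and 246 tags in KO and 198, 260, 192 and 178 in WT, a log2 difference of 0.54 (SE 0.08, limma adjusted p = 7.18e-06). A region near Scd4 (chr19:44343454-44344233) held 66, 57, 61 and 65 in KO and 46, 57, 45 and 47 in WT, with a difference of 0.57 (SE 0.15, limma adjusted p = 0.00604), a call that was lost with background scaling (adjusted p = 0.12). The Scd4 promoter gave 0.22 (SE 0.12) and was not called.

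The regions of the cluster partly share their sequence. Among 153 pairs of summit windows, 8 aligned over at least 100 bases with at least 75% of the bases identical, and 4 regions that all rose formed 1 family, with 77.2% to 92.9% identity over 110 to 189 aligned bases in all 6 pairs. They are printed so that the copies can be compared: 201 bases around each summit of GRCm38, all turned to the same direction, with CCAAT and its complement ATTGG in capitals. The coordinates are chr19:44248212-44248412 (plus strand) near Scd3, chr19:44284144-44284344 (plus) upstream of Scd2, chr19:44314531-44314731 (plus) at AC123853.1, and chr19:44388523-44388723 (minus) downstream of Scd1. The authors kept only alignments of quality above 30, and how many reads could fit more than 1 copy was not tested.
Near Scd3: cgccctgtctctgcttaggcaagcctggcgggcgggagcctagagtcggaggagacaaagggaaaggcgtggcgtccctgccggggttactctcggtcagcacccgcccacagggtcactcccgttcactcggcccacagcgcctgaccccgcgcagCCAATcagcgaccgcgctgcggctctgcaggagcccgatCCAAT
Upstream of Scd2: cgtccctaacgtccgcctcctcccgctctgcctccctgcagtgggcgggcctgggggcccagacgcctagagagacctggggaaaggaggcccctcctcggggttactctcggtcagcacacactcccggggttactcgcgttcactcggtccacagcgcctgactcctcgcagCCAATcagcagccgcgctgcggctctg
At AC123853.1: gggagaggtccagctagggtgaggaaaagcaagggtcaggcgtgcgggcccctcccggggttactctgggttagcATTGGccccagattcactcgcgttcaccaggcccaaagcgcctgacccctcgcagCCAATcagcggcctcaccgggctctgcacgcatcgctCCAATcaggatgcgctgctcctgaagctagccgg
Downstream of Scd1: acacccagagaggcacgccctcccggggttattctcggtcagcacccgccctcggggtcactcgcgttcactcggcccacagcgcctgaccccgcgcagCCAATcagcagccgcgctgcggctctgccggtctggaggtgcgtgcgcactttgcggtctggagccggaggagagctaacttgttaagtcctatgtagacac

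The Scd1 promoter had the largest log2 difference above 0 among these genes. It held 2 CCAAT matches (in capitals) in the 120 bases before the outer 5′ end of the gene (chr19:44407880-44407999 of GRCm38, minus strand). The basic start of Scd1 lies 0.17 kb inside that end. The summit windows of the Scd1 and Scd2 promoters were 80.7% identical over 114 aligned bases. The stretch holds no SRE match.
Scd1 promoter: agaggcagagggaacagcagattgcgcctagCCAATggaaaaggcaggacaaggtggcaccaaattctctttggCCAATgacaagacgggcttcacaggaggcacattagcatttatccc

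**Figure D4:**
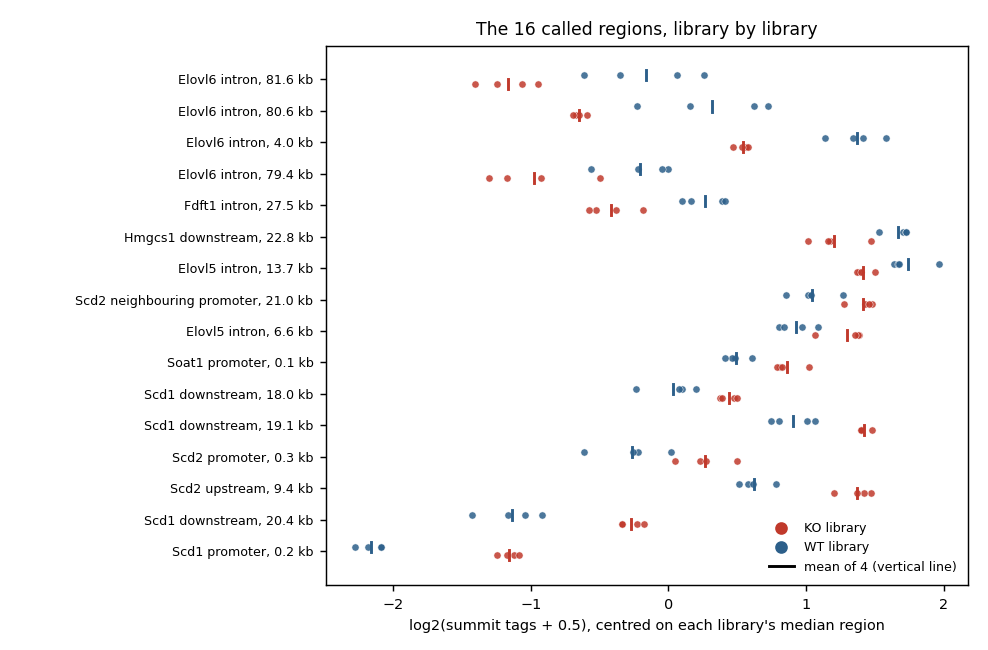
The 16 regions called by limma, 1 line per region with its gene, place and distance to the gene's start, and 1 point per library at its log2(summit tags + 0.5) centred on the library's median region, KO and WT apart, with a vertical line at each mean of 4. The upper 7 lines are lower in KO and the other 9 higher. The genotypes overlap at the Elovl6 region of 79.4 kb and at the Elovl5 region of 6.6 kb, and are apart at the others.

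The genes for polyunsaturated fatty acids and phospholipids were mixed. Elovl5 elongates polyunsaturated chains, and its promoter held 325, 304, 274 and 257 tags in KO and 341, 389, 340 and 260 in WT (log2 difference 0.03, 95% interval -0.13 to 0.18). Inside the gene, a region 13.7 kb from the start (chr9:77930675-77931442) held 193, 176, 156 and 151 tags in KO and 219, 291, 238 and 236 in WT. These groups did not overlap, with a log2 difference of -0.33 (SE 0.09, limma adjusted p = 0.00909, and 0.00105 to 0.16 over the alternatives). A region 6.64 kb from the start (chr9:77923773-77924346) went the other way, with 143, 176, 157 and 147 tags in KO and 138, 159, 158 and 108 in WT, a log2 difference of 0.37 (SE 0.10, limma adjusted p = 0.00774, and 0.00281 to 0.337 over the alternatives). The genotypes overlapped at that region, also after centring.

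Elovl5 also held 2 one-sided regions. The region at chr9:77919080-77919363, 1.88 kb from the start, had 53, 85, 60 and 44 tags in WT and no peak in KO, on a local background of 19.9 tags that is far above the genome's. The region at chr9:77941193-77941441 had 33, 32, 28 and 25 tags in WT and 20 in KO replicate 3 only. Both kept their counts with lists of equal length and at the stricter q.

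The Elovl5 region 13.7 kb from the start is printed because it was the only called region with a DR1 match, the element at which RXR pairs with PPARs (2 copies of AGGTCA spaced by 1 base, in either direction and with at most 2 mismatches). It is chr9:77930929-77931129 of GRCm38, plus strand, in an intron, with the match in capitals.
Elovl5 intron, 13.7 kb: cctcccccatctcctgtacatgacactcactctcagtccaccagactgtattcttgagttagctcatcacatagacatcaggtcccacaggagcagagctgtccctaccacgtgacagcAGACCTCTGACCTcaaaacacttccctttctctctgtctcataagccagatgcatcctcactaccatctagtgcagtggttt

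Fads1 and Fads2 encode the delta-5 and delta-6 desaturases. The Fads1 promoter held 31, 33, 37 and 31 tags in KO and 36, 57, 51 and 47 in WT, groups that overlapped by 1 library, with a log2 difference of -0.30 (SE 0.17, 95% interval -0.64 to 0.05, limma adjusted p = 0.268). No Fads2 region had a peak in all 8 libraries. The Fads2 promoter (chr19:10101412-10102018) had 18, 12 and 17 tags in WT replicates 1_3, 3 and 4 and no peak in WT replicate 1_2 or in any KO library. A region downstream of the gene (chr19:10060310-10060607) had 15, 19 and 15 tags in the same 3 WT libraries and none in KO. With lists of equal length each kept a peak in 2 WT libraries. At Lpcat3, which places polyunsaturated chains in phospholipids, the promoter held 436, 394, 378 and 335 tags in KO and 454, 515, 460 and 453 in WT (log2 difference -0.08, 95% interval -0.23 to 0.08), and none of its 8 tested regions was called.

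Of the genes for sterol transport and storage, Soat1, which esterifies cholesterol for lipid droplets, was higher in KO at its promoter (chr1:156474073-156474582). The KO libraries held 120, 116, 107 and 116 tags and the WT libraries 98, 139, 102 and 80, overlapping in tags and apart after centring. The log2 difference was 0.37 (SE 0.11, 95% interval 0.16 to 0.58), with a limma adjusted p of 0.0134 and 0.0122 to 0.375 over the alternatives, and the call was lost without KO replicate 3. Stard4, a carrier of cholesterol between membranes, had one of the strongest promoters, with 533, 470, 448 and 427 tags in KO and 539, 650, 571 and 500 in WT (log2 difference -0.05, 95% interval -0.20 to 0.09). Npc1 exports cholesterol from lysosomes, and its stronger promoter region held 351, 333, 308 and 299 tags against 368, 401, 311 and 295 (log2 difference 0.13, 95% interval -0.03 to 0.29).

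Counting peaks in place of tags, a KO library had on average fewer of the distal regions of these genes than a WT library, a count given without a test. The KO libraries had a peak in 88, 87, 81 and 90 of the 111 distal regions (86.5 ± 3.87, SD, n = 4), and the WT libraries in 96, 107, 96 and 89 (97.0 ± 7.44, SD, n = 4). The 2 ranges overlapped only between KO replicate 3 and WT replicate 4. As shares this was 77.9% and 87.4%, beside 79.9% and 84.6% over all 56508 distal regions. WT replicate 1_3, with the longest list, had the most of these regions, and with lists of equal length the mean difference shrank from -10.50 to -4.25 regions. Without WT replicate 1_3 it was -6.75. The promoter counts were 45, 45, 44 and 45 of 47 in KO and 43, 46, 46 and 46 in WT. More WT than KO libraries had a peak at 33 regions and more KO than WT libraries at 11, which is 20.9% and 6.96% of the 158, beside 17.9% and 9.57% of all regions.

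Regions with peaks in all 4 libraries of one genotype and none of the other were few. There were 3 WT-only regions (at Scap, Elovl6 and Elovl5) and 1 KO-only region (at Scd1), beside 0.820% WT-only and 0.285% KO-only of the 72711 regions. The WT-only count was 5 without KO replicate 3 and 5 without WT replicate 1_2.

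Short motifs were counted within 100 bp of each summit on both strands, and a base could count for more than 1 motif. CCAAT, the NF-Y core, was found in 25 of the 35 own promoters (71.4%) and in 29.6% of all 16203 promoter regions. By role, 6 of 7 mevalonate promoters, 6 of 8 sterol promoters, 4 of 5 fatty acid synthesis promoters, 4 of 5 promoters of the polyunsaturated and phospholipid genes, 3 of 6 of the SREBP genes and 2 of 4 of the transport and storage genes held it, and Mvk had 5 matches. GGGCGG, the core of the Sp1 motif, was in 24 of 35 (68.6%) and in 52.3% of all. TCACNCCAC was in 1 of 35 (2.86%) and in 0.722% of all, and CACGTG, an E-box, in 2 of 35 (5.71%) and in 7.42%. Among RefSeq promoters, matched for 24 of the 32 genes, 1 gene (Hmgcs1) held TCACNCCAC, beside 1.44% of all genes with a promoter there. These shares describe the letters and say nothing of what was bound.

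At the distal summits, DR1 was matched in 6 of 111 regions (5.41%), beside 4.74% of all distal regions. DR4, the element at which RXR pairs with the liver X receptors (2 copies of AGGTCA spaced by 4 bases, at most 2 mismatches), was matched in 0 of 111, beside 2.95%. TCACNCCAC was in 3 of 111 (2.70%), at Elovl6, Fdft1 and Srebf1, beside 1.08%. The Srebf1 match was in the region 0.32 kb from the outer 5′ end of the gene. Of the 7 distal regions that were lower in KO, 1 held a DR1 match and 1 an SRE match, and of the 5 that were higher, 0 held either.

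Genes of the same pathways that were not among the 32 were counted for comparison. Of 92 regions at 22 such genes, 74 had a peak in all libraries. Of these, limma called 1 lower and 7 higher in KO (1.35% and 9.46%), beside 7.03% lower and 5.81% higher of all 47499 regions. Promoters made up a larger part of the 74 than of all regions. Among the 35 promoters 0 were lower and 3 higher (8.57%), beside 2.70% lower and 6.85% higher of all promoters. Among the 39 distal regions 1 was lower and 4 higher (2.56% and 10.3%), beside 8.70% and 5.41% of all distal regions. The largest differences were at Hsd17b7, of cholesterol synthesis, Elovl7, an elongase, and the Scd4 and Scd3 regions described above. The Elovl7 promoter (chr13:108214093-108214924) held 150, 154, 130 and 121 tags in KO and 96, 113, 89 and 78 in WT, groups that did not overlap, with a log2 difference of 0.78 (SE 0.10, limma adjusted p = 2.15e-07). The Hsd17b7 region (chr1:169956411-169957012) held 22, 26, 23 and 14 tags in KO and 11, 18, 12 and 12 in WT, with a log2 difference of 0.87 (SE 0.21, limma adjusted p = 0.00373). The elongases Elovl6 and Elovl7 thus stood on opposite sides, a contrast picked out after the values had been seen.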

How the data were processed

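ATAC-seq peak lists of 8 libraries were analysed, grouped by the genotype in the sample labels. Per the study's methods and the submitters' processing notes, the authors used cutadapt for trimming and Bowtie2 for alignment to mm10, kept proper pairs of quality above 30 without duplicates (SAMtools), and called peaks per library with MACS3 at a q of 0.05, extending cuts to 200 bp. Each deposited list gives a fold enrichment (a ratio of summit tags to local background, each with 1 added), a −log10 p-value, a −log10 q-value and a rounded score, which was not used. The authors tested read counts of a consensus set. The lists hold no read counts, so the tags of a summit were recovered by solving its fold and −log10 p under the peak caller's Poisson model, and 100% of peaks gave whole tags within a relative error of 1e-05. The lists were not made for comparing tags between libraries, and a missing peak is not a value of 0.

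For the 47499 regions found in every library, log2(tags + 0.5) minus the library's median was compared between KO and WT with limma 3.58.1 (R 4.3.3, trended prior variance), with Benjamini-Hochberg adjustment over all of them. Both steps were tested on simulated data. Sequences came from GRCm38, whose chromosome lengths held all peaks, and from RefSeq promoters. Windows were aligned with Biopython 1.88. Alternatives covered scaling, pseudocount, filters, list length, merging, window and each library left out. The members and lists were chosen with earlier results of these data known. Named were each gene's strongest own promoter region, every region past the limma threshold, regions with peaks in 4 libraries of a genotype and at most 1 of the other or 3 and 0, the 4 largest called differences among the other pathway genes, and Rxra. The Scd cluster, the alignments, the regions at the outer 5′ ends of Srebf1 and Acaca, those of Insig1 and Scap near the threshold, and a Scd2 intron region were added after the values had been seen. Depth limits weak regions most, since peaks of under about 9 tags were not called in the deeper libraries.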

Additional observations from a re-analysis of the deposited data

Results flagged for a closer look

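In 96 groups of 4 libraries, 8 held a library whose gap to the nearest other exceeded Dixon's 95% critical share of the group's range, where chance alone gives about 1 in 20. For peaks at promoter regions, KO replicate 2 had 44 against 45 in each other KO library, and WT replicate 1_2 had 43 against 46 in each other WT library. As the other counts in each group were equal, a gap of any size would have been flagged. The stated chance rate does not hold for such tied counts. For centred log2 tags, the Acat2 promoter was at 1.45 in KO replicate 1_3 (1.05 to 1.10 in the other KO libraries), and the Sqle promoter at 1.89 in WT replicate 1_3 (2.21 to 2.24). The strongest region downstream of Scd1 was at 1.48 in KO replicate 3 (1.40 in the others). The lower Elovl5 region, 13.7 kb from the start, was at 1.97 in WT replicate 4 (1.64 to 1.68), and the higher Elovl5 region, 6.64 kb from the start, at 1.07 in KO replicate 1_2 (1.36 to 1.39). The region downstream of Hmgcs1 was at 1.53 in WT replicate 4 (1.70 to 1.73). The calls at these 4 distal regions held without the named library.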

How the results depend on the processing

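Of 150 recomputed values that answer a comparison, 139 were labelled the same, by a loose rule. Counts passed if they changed by no more than a set ratio. Medians passed if they moved by less than the spread between libraries, whatever their sign, and peak differences had to keep their sign as well. Values labelled the same thus include 6 promoters higher in KO without WT replicate 4, against 4. They also include a distal median of -0.00 with the replicate number fitted as a block, against 0.06. Lists of equal length turned the promoter difference in peaks per library from -0.50 to 0.25 and moved the distal one to -4.25. Leaving out each library gave promoter differences from -1.25 to 0.25, the 0.25 being without KO replicate 2, distal ones from -13.17 to -6.75, the -6.75 being without WT replicate 1_3, and WT-only counts from 3 to 5. Counting 1_2 and 1_3 as 1 sample gave 5 WT-only regions, and a window of 2 kb gave 0 KO-only regions. Scaling by background tags gave 1 promoter and 2 distal regions higher in KO. Allowing missing peaks gave 1 promoter lower, that of Elovl6. Fitting the replicate number as a block (the replicate block) gave 7 promoters higher in KO against 4. The new promoter calls were at Fdft1 (0.19), Fdps (0.22), Hmgcs1 (0.15) and Mvd (0.21). Among the distal regions 8 were lower and 5 higher, with the Scap region 8.85 kb from the start newly lower (-0.51). Not all new distal calls are named here. No call was lost at Elovl6, and calls were lost at 3 regions (the Scd2 promoter, 1 region of Elovl5 and 1 of Scd1). The block is not a pairing from the labels. KO replicate 2 and WT replicate 4 have no partner of the same number, so the KO estimate of this fit rests on replicates 1_2, 1_3 and 3. The deviations of same-numbered libraries correlated by 0.056, 0.116 and 0.037. KO replicates 1_2, 1_3 and 3 each correlated best with their own number among the WT libraries.

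Of 319 recomputed values of called regions, 303 kept the call, 16 missed the threshold and 0 changed direction. These values leave out the fit without trended prior variance. That fit called 3 promoters of these genes higher and 0 lower in KO, and 4 distal regions higher and 6 lower. Over all promoters it called 273 lower and 295 higher, and over all distal regions 2309 lower and 1367 higher. Changes of direction occurred only at promoters that were not called. With total tags, Elovl5 was at -0.01, Insig2 at -0.02 and Sc5d at -0.02. With background tags, Elovl5 was at -0.03, Insig2 at -0.05, Msmo1 at -0.02 and Sc5d at -0.04. With quantile normalisation, Elovl5 was at -0.05, Insig1 at -0.01, Insig2 at -0.06, Msmo1 at -0.05 and Sc5d at -0.02. With 1_2 and 1_3 averaged Pmvk was at 0.02, and with the replicate block Scap was at -0.02. Leaving out each library in turn, the promoter of Idi1 ranged from -0.09 to 0.01, Insig2 from -0.01 to 0.03, Msmo1 from -0.01 to 0.08, Pmvk from -0.06 to 0.08, Sc5d from -0.03 to 0.05 and Sqle from -0.09 to 0.03.

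The depth limits what a missing peak can show, and the design cannot tell genotype from any difference between the mice that the labels do not give. Peaks at weak regions, such as those of Scap, Srebf1 and Fads2, lie near the calling threshold. Some regions of the Scd cluster share sequence, and reads that fit several copies were not examined.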
